A study of Homo sapiens with 8 samples.

Results

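The genes described here are 44 genes of DNA replication and nucleotide supply, read in HCT116 cells carrying a MED12 E33Q knock-in and in wild-type HCT116 cells. They were chosen by name, from a list of symbols for origin licensing, the replicative helicase, the clamp and its loader, the polymerases, Okazaki fragment joining and nucleotide synthesis, and all 44 were found among the 40295 gene IDs of the deposited table and passed the filter on low counts. HCT116 is a human colorectal cancer line. MED12 is the subunit through which the Mediator kinase module switches on its kinase CDK8, and E33Q is a change in that protein made with CRISPR-Cas9. The 4 groups were knock-in cells treated for 24 h with interferon-gamma (IFN-γ) at 5 ng/ml, knock-in cells at 0 h without it, wild-type cells treated in the same way and wild-type cells at 0 h. Each group had 2 libraries of total RNA depleted of ribosomal RNA, which makes 8 in all. The labels name 1 knock-in line, so the E33Q change cannot be told apart from other differences of that line. Every treated library is also a 24 h library, so IFN-γ cannot be told apart from time in culture. The submitters call the 2 libraries of a group biological replicates without saying how they were prepared, so p-values measure the spread between these libraries, which may be technical.

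Replication starts at origins that the origin recognition complex (ORC), CDC6 and CDT1 load with the ring of MCM2 to MCM7 during G1. CDC45 and GINS turn the ring into a moving helicase in S phase, polymerase alpha-primase lays primers, polymerase epsilon extends the leading strand and polymerase delta the lagging strand, both held on DNA by the PCNA clamp. Many of these genes are known targets of E2F transcription factors at the start of S phase, and IFN-γ is known to slow the growth of many epithelial cells. RNA of a whole culture was measured, so fewer cells in S phase and less of an RNA per cell cannot be told apart.

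Estimated counts summed to between 20901909 and 28045842 per library, and a member had between 526 and 20600 counts in a library. Values below are in CPM, the count relative to the scaled library total, with totals scaled by TMM (trimmed mean of M-values), which takes most genes as unchanged. The mean GC content of the counted RNA was 49.1 and 49.2% in treated knock-in, 46.3 and 46.4% in untreated knock-in, 49.0 and 49.0% in treated wild-type, and 47.7 and 46.5% in untreated wild-type libraries, so that the first untreated wild-type library stood apart from its replicate. The share of counts from the ERCC spike-in RNAs was 0.263 ± 0.0003% in treated and 0.139 ± 0.0022% in untreated knock-in cells, and 0.250 ± 0.031% in treated and 0.119 ± 0.0127% in untreated wild-type cells (SD, n = 2 each). The 10 markers of colon epithelium summed to 3949 to 5298 CPM in treated and 2382 to 3433 CPM in untreated libraries. Most of this sum was KRT8, and VIL1 had at most 4 counts in a library. EPCAM alone had lower means with treatment in both lines, 115 against 166 CPM in knock-in and 191 against 213 CPM in wild-type cells. Of 12 markers of plasma and B cells, MS4A1 was at 0, and IGHG1, IGHM and CD79A had at most 6 counts in a library. The 12 summed to 80.4 and 567 CPM in treated and 66.9 and 603 CPM in untreated knock-in cells. In wild-type cells the sum was 64.2 and 61.6 CPM in treated and 634 and 776 CPM in untreated libraries. Where it was low, SDC1 gave nearly all of it (66.4 of 66.9 CPM in the first untreated knock-in library). IGKC, IGHA1 and IGHA2 were at 0 there, and JCHAIN had at most 5 counts, against 2855 or more in the libraries with high sums. This sum moved with treatment in wild-type cells and with the replicate number in knock-in cells, and its part in the results was not tested. Markers of other leukocytes (9 genes, CD3D at 0), fibroblasts (6 genes, LUM at 0) and endothelium (4 genes) summed to between 1.06 and 7.58 CPM in every library. The 13 mitochondrially encoded mRNAs summed to 4750 and 4919 CPM in treated and 4781 and 7734 CPM in untreated knock-in cells. Wild-type cells gave 5229 and 4721 CPM in treated and 7255 and 6570 CPM in untreated libraries. By this sum the first untreated knock-in library stood apart from its replicate, and its part in the results was not tested. MED12 itself had 33.3 and 30.1 CPM in treated and 12.9 and 11.2 CPM in untreated knock-in cells, and 34.3 and 28.3 CPM in treated and 23.1 and 14.2 CPM in untreated wild-type cells, which does not show the single-residue change.

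Under TMM scaling, treatment with IFN-γ moved the replication genes in both directions, with falls in the majority. In knock-in cells 24 of 44 fell and 8 rose, and in wild-type cells 22 fell and 4 rose, by edgeR's quasi-likelihood test with a Benjamini-Hochberg adjusted p under 0.05 over all 16519 tested genes. Over all tested genes the same test called 25.8% lower and 26.4% higher in knock-in cells, and 20.8% lower and 17.1% higher in wild-type cells. The members' median log2 fold change was -0.50 in knock-in cells, where the median of all tested genes was 0.12. In wild-type cells it was -0.37, against 0.08 for all tested genes. The 22 genes called lower in wild-type cells were also called lower in knock-in cells, the 4 called higher were also called higher there, and no member was called in opposite directions. The falls lay in origin recognition (ORC2 to ORC5), MCM6, CDC6 and the CDT1 inhibitor geminin (GMNN), GINS2 and CDC45, the clamp PCNA and all loader subunits but RFC2, the primase subunits with POLA1, POLD3, POLE2, RPA2, RPA3 and RRM1. The rises in both lines were MCM2, MCM7, POLD2 and POLE. A further 6 members were called in knock-in cells and not in wild-type cells, namely MCM10 and RPA1 lower and MCM5, CDT1, POLD1 and LIG1 higher, and 12 were called in neither. None of these 6 was called for a difference between the lines' responses. Without the first untreated wild-type library, whose GC content stood apart, the members' median was -0.57 in knock-in and -0.56 in wild-type cells. With counts scaled to the ERCC spike-ins, the median of all genes moved to -0.41 in knock-in and -0.72 in wild-type cells. Under that scaling 30 members fell in knock-in cells (33.1% of all tested genes) and 33 in wild-type cells (40.8%), and these include every one of the 24 and 22 falls. POLE alone still rose in knock-in cells, where 3.73% of all tested genes were called higher, and 0 members rose in wild-type cells (1.41%), where MCM2 and POLD2 turned to negative values. DESeq2 called 35 members in knock-in cells (51.4% of all tested genes) and 29 in wild-type cells (39.4%). In wild-type cells the calls of MCM2, ORC2, ORC4, GINS2, CDC45, POLA1, PRIM2 and POLD3, and in knock-in cells those of MCM10, ORC2, CDC45 and POLD3, were lost when 1 or another library was left out. Without both knock-in libraries numbered 2, which had the high plasma and B cell markers, the members' median in knock-in cells was -0.43. The median of all tested genes was 0.12 in that fit.

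**Figure D1:**
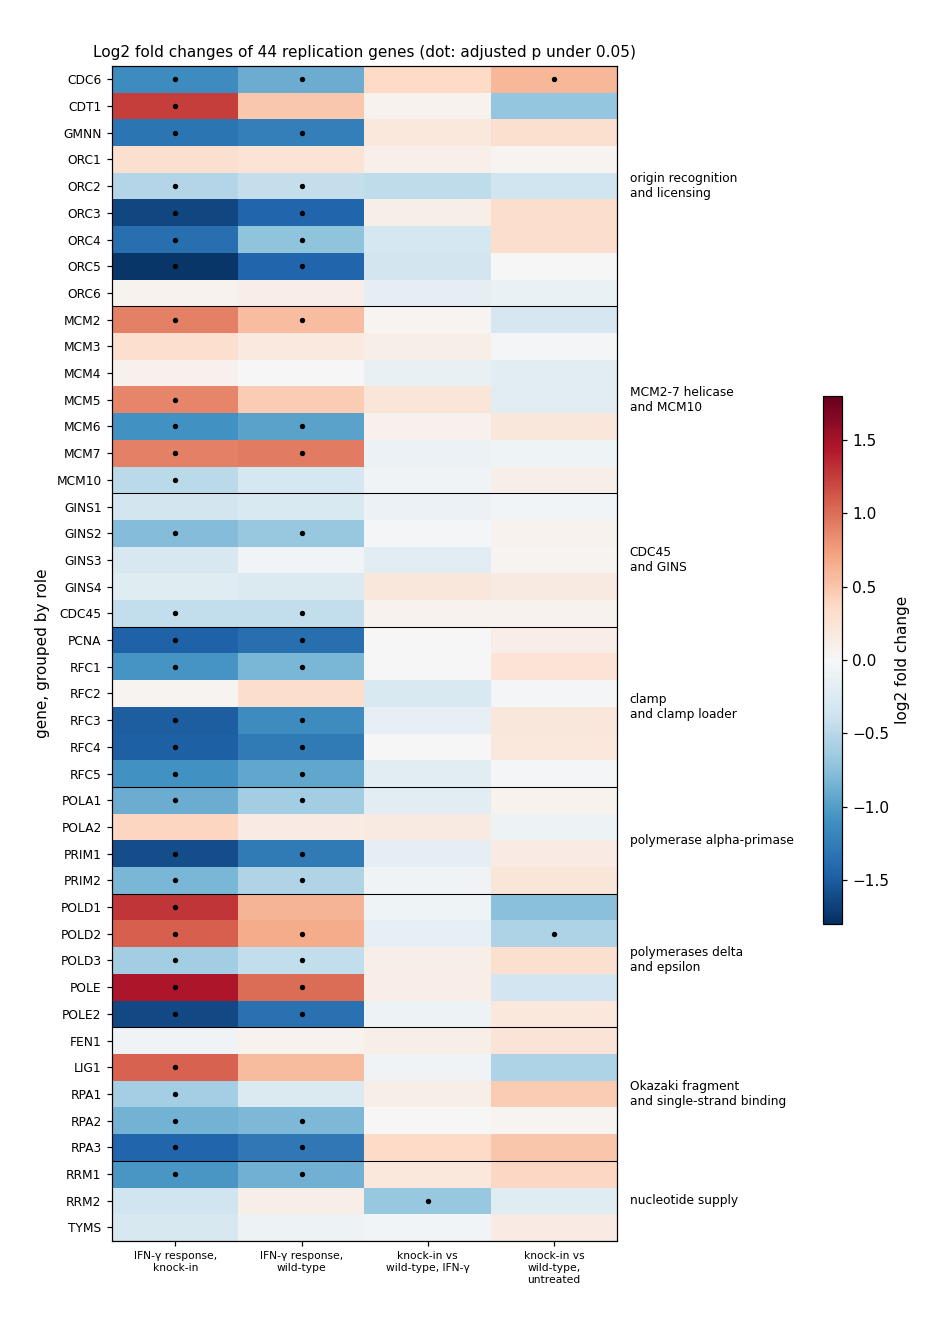
Log2 fold changes of the 44 genes (rows, grouped by role) in 4 comparisons (columns), from blue for lower to red for higher, with a dot where edgeR's adjusted p was under 0.05. The IFN-γ columns of knock-in and wild-type cells share 22 blue and 4 red dotted genes under TMM scaling, with 6 more dotted in the knock-in column, while the columns for knock-in against wild-type cells are pale, with 1 dot with IFN-γ and 2 without; scaled to the spike-ins, MCM2 and POLD2 turn negative in the wild-type column.

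RefSeq promoters (GRCh38.p14, 250 bases before to 50 after an annotated start) were matched for 38 of the 44 genes, and not for RPA3, POLD3, MCM5, RPA2, MCM4 and GINS4. They are shown for the 3 members with the largest mean fall and the 3 with the largest mean rise over both lines, so that promoters of members that moved in opposite directions can be read side by side. Each runs 5′ to 3′ on the gene's strand, and capitals mark E2F words (TTTCCCGC, TTTGGCGC, TTTCGCGC or TTTGCCGC, on either strand) and CCAAT on either strand, which overlap in MCM7. Falling genes come first.
ORC5 (chr7:104207964-104208263, minus strand): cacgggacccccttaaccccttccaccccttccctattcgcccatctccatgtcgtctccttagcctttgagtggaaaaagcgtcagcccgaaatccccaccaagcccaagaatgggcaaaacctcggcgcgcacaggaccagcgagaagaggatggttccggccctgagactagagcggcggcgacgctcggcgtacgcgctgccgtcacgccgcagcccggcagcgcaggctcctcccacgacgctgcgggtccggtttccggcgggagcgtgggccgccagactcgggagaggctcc
ORC3 (chr6:87589885-87590184, plus strand): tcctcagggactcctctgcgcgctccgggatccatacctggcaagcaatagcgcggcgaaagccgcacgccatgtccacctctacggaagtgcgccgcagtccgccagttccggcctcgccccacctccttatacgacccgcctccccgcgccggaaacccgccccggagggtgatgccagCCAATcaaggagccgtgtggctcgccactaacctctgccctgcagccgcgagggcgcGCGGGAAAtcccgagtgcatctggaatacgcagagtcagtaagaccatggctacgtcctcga
POLE2 (chr14:49688165-49688464, minus strand): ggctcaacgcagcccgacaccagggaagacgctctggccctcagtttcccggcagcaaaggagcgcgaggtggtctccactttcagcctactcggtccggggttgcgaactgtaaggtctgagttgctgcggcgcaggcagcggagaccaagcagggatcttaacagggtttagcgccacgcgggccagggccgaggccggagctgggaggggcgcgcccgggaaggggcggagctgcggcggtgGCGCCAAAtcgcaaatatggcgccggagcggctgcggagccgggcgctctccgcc
POLE (chr12:132687293-132687592, minus strand): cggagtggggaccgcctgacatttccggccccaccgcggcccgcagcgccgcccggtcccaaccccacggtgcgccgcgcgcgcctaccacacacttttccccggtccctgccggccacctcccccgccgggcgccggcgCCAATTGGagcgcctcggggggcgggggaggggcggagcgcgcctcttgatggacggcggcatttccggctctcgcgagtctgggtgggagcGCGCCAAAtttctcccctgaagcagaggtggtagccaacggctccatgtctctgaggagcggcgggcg
POLD1 (chr19:50384073-50384372, plus strand): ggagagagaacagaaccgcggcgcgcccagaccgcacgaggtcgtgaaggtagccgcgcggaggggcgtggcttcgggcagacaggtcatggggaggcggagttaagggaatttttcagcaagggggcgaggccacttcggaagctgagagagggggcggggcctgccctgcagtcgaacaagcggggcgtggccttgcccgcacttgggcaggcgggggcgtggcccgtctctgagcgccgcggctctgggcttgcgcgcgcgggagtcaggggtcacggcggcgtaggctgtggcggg
MCM7 (chr7:100101348-100101647, minus strand): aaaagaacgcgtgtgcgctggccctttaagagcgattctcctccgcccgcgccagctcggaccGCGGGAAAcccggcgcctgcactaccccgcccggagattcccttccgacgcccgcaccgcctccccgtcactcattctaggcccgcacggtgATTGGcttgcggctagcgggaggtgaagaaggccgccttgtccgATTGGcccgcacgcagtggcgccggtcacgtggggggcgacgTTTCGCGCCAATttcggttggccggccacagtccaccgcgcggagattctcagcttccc

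An E2F word stood in ORC3 and POLE2, which fell, and in POLE and MCM7, which rose, and in neither ORC5, which fell, nor POLD1. The word began at -12 in ORC3, -5 in POLE2 and -18 in POLE, with the annotated start at 0, so that in POLE2 it spans the start. Among all matched members, 18 of 38 promoters (47.4%) held an E2F word, against 3.33% of 27305 promoters of the same length. By call, 8 of 19 matched genes that fell in both lines held one, as did 3 of 4 that rose in both and 5 of 10 called in neither. CCAAT stood in 22 of 38 (57.9%), against 35.7% of all promoters. The STAT word TTCNNNGAA, with N for any base, stood in 2 of 38 (5.26%), against 7.88%, and the CHR word TTTGAA in 1 (2.63%), against 15.4%. A word in the window is a match of letters and not a measured binding site.

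Among the 9 genes of origin recognition and licensing, 6 fell in each line and CDT1 rose in knock-in cells. ORC5 (chr7:104126341-104208047, minus strand, GRCh38), a subunit of the ring that marks origins, had the largest fall of all members in knock-in cells. ORC5 had 22.7 and 26.3 CPM in treated and 87.9 and 76.4 CPM in untreated knock-in cells, and 30.2 and 31.0 CPM in treated and 69.0 and 95.4 CPM in untreated wild-type cells. In both lines each treated library lay below each untreated one, with log2 fold changes of -1.75 ± 0.18 (SE) in knock-in cells (adjusted p = 0.000187, edgeR) and -1.42 ± 0.18 in wild-type cells (adjusted p = 0.000625). The changes that follow are also log2 fold changes with their SE, knock-in before wild-type. ORC3 had 62.8 and 71.2 CPM in treated and 217 and 200.4 CPM in untreated knock-in cells, and 64.5 and 59.8 CPM in treated and 142 and 193 CPM in untreated wild-type cells. ORC3, another subunit, fell, at -1.64 ± 0.17 in knock-in and -1.43 ± 0.17 in wild-type cells (adjusted p = 0.000177 and 0.000494, edgeR). ORC4 had 62.2 and 70.4 CPM in treated and 183 and 156 CPM in untreated knock-in cells, and 79.5 and 85.5 CPM in treated and 120.2 and 153 CPM in untreated wild-type cells, which gave -1.35 ± 0.16 in knock-in and -0.72 ± 0.16 in wild-type cells (adjusted p = 0.000224 and 0.00622, edgeR). ORC2 fell too, with values of -0.52 in knock-in and -0.42 in wild-type cells, but gave 0.19 and 0.0079, not called, once the trend of the counts on transcript GC content was removed. The other two subunits were not called. ORC1, which closes the ring and is known to be degraded after G1 in human cells, gave 0.29 in knock-in cells (95% interval -0.02 to 0.60) and 0.25 in wild-type cells (-0.063 to 0.56). ORC6 gave 0.063 (-0.22 to 0.35) and 0.12 (-0.16 to 0.40).

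Of the licensing factors that bring the helicase to ORC, CDC6 fell in both lines, and CDT1 was called higher in knock-in cells under TMM scaling. CDC6 had 175 and 182 CPM in treated and 383 and 399 CPM in untreated knock-in cells, and 135 and 145 CPM in treated and 227 and 290.2 CPM in untreated wild-type cells. CDC6, the ATPase that recruits the MCM ring, was lower in every treated library of a line than in its untreated ones, with -1.13 ± 0.14 in knock-in (adjusted p = 0.000279, edgeR) and -0.89 ± 0.14 in wild-type cells (adjusted p = 0.00152). Geminin, the protein that binds CDT1 and blocks relicensing, fell with it. GMNN had 62.8 and 61.9 CPM in treated and 159 and 153 CPM in untreated knock-in cells, and 48.3 and 60.8 CPM in treated and 101 and 154 CPM in untreated wild-type cells, which gave -1.32 ± 0.20 and -1.22 ± 0.20 (adjusted p = 0.000634 and 0.00181, edgeR). CDT1, the partner of CDC6 that geminin restrains, had 66.6 and 66.4 CPM in treated and 33.6 and 22.6 CPM in untreated knock-in cells, and 71.1 and 55.6 CPM in treated and 57.6 and 32.9 CPM in untreated wild-type cells. The knock-in groups did not overlap (1.25 ± 0.27, adjusted p = 0.00408, edgeR), while the wild-type groups did (0.48 ± 0.27, adjusted p = 0.184). CDT1 was called in neither line with the GC trend removed, and was not called higher in either with spike-in scaling. The difference between the lines' responses, 0.76 ± 0.38, was not called (adjusted p = 0.688, edgeR).

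**Figure D2:**
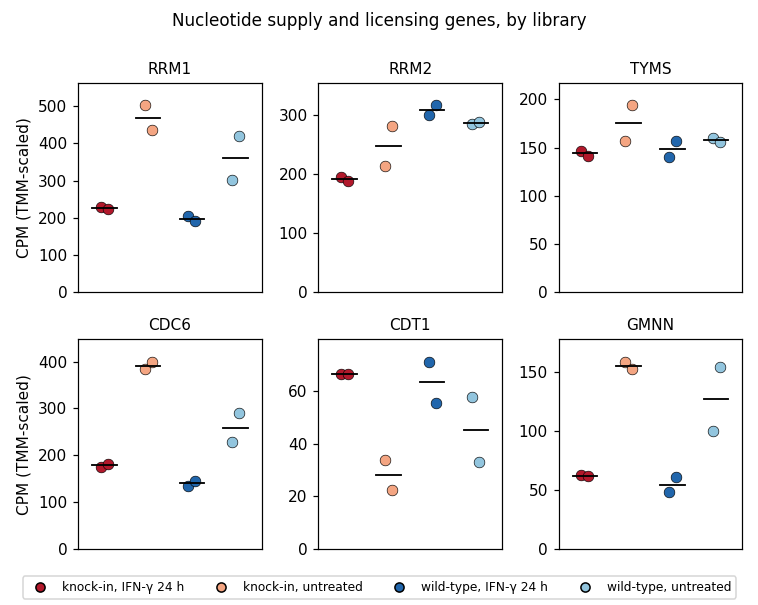
CPM after TMM scaling (vertical axis, from 0) of 3 nucleotide supply genes and 3 licensing genes in each of the 8 libraries, with points for libraries and a line for the group mean. RRM1, CDC6 and GMNN are lower in the treated than the untreated libraries of both lines, and RRM2 in treated knock-in cells (189 and 195 CPM) lies below treated wild-type cells (299 and 316 CPM).

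Under TMM scaling the 6 subunits of the MCM2-7 ring, which enter the helicase in equal numbers, gave opposite RNA responses. With the trend of the counts on transcript GC content removed, MCM6 still fell in both lines. In that fit no ring subunit was called higher in knock-in cells, and MCM7 alone was in wild-type cells (0.41). MCM6 had 190.4 and 192 CPM in treated and 405 and 408 CPM in untreated knock-in cells, and 184 and 178 CPM in treated and 306 and 402 CPM in untreated wild-type cells. MCM6 was the one ring subunit that fell, at -1.09 ± 0.14 in knock-in and -0.97 ± 0.14 in wild-type cells (adjusted p = 0.00034 and 0.00113, edgeR). MCM7 had 431 and 454 CPM in treated and 221 and 249 CPM in untreated knock-in cells, and 457 and 496 CPM in treated and 269 and 229 CPM in untreated wild-type cells. MCM7 rose by 0.91 ± 0.13 and 0.94 ± 0.13 (adjusted p = 0.000491 and 0.000923, edgeR), with no overlap of treated and untreated libraries in either line. MCM2 had 374 and 375 CPM in treated and 213 and 185 CPM in untreated knock-in cells, and 339 and 382 CPM in treated and 286 and 205 CPM in untreated wild-type cells. MCM2 rose by 0.91 ± 0.17 and 0.55 ± 0.17 (adjusted p = 0.00162 and 0.0279, edgeR), with -0.29 in the wild type when scaled to the spike-ins. MCM5 rose in knock-in cells (0.87 ± 0.19, adjusted p = 0.00341, edgeR) and gave 0.46 in wild-type cells, which was not called (adjusted p = 0.0747). MCM3 and MCM4 were called in neither line. MCM4, at 720.0 and 717 CPM in treated and 734 and 630.0 CPM in untreated knock-in cells, and 786 and 788 CPM in treated and 808 and 761 CPM in untreated wild-type cells, gave 0.075 (95% interval -0.19 to 0.34) and 0.0033 (-0.26 to 0.27). Per kilobase of transcript, mean MCM6 RNA was 51.2 CPM in treated and 108.9 CPM in untreated knock-in cells, while mean MCM7 RNA was 149 and 79.3 CPM, so the order of these subunits was opposite in treated and untreated knock-in cells. Wild-type cells gave 48.5 CPM per kilobase in treated and 94.8 in untreated cells for MCM6, and 161 and 84.0 for MCM7. In the first untreated wild-type library, though, MCM6 was at 81.9 and MCM7 at 90.7, the order of treated cells. These values per kilobase were taken without removal of the GC trend. MCM10, which helps start the loaded helicase, was called lower in knock-in cells and not in wild-type cells (-0.48 ± 0.14, adjusted p = 0.0147, edgeR; wild-type -0.31 ± 0.14, adjusted p = 0.0991).

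**Figure D3:**
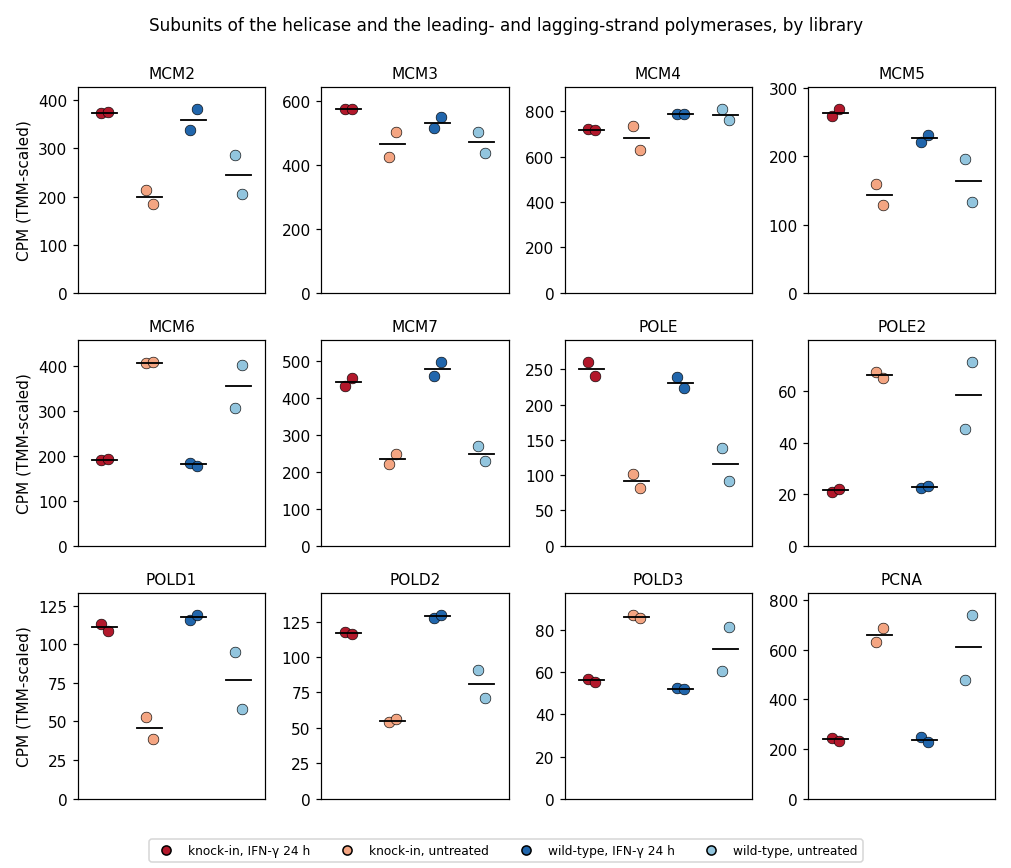
CPM after TMM scaling (vertical axis, from 0) of the 6 MCM ring subunits, 5 subunits of polymerases epsilon and delta, and PCNA in each library, with points for libraries and a line for the group mean. MCM6, POLE2, POLD3 and PCNA are lower in treated than in untreated cells of both lines, and MCM2, MCM7, POLE and POLD2 higher, with MCM2 and POLD2 turning negative in the wild type when scaled to the spike-ins.

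Of CDC45 and the 4 GINS subunits, which complete the moving helicase, 2 genes fell in each line. CDC45 had 57.2 and 63.3 CPM in treated and 78.2 and 86.3 CPM in untreated knock-in cells, and 55.4 and 60.4 CPM in treated and 76.5 and 81.0 CPM in untreated wild-type cells, and it fell, at -0.45 ± 0.13 in knock-in and -0.44 ± 0.13 in wild-type cells (adjusted p = 0.0162 and 0.0252, edgeR). GINS2 fell, at -0.78 ± 0.15 and -0.68 ± 0.15 (adjusted p = 0.00222 and 0.00786, edgeR). GINS1, GINS3 and GINS4 were not called in either line, with values between -0.33 and -0.22 in knock-in cells and between -0.28 and -0.049 in wild-type cells. With the GC trend removed GINS4 was called lower in both lines, and GINS1 was called higher in knock-in cells (0.37).

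Of the sliding clamp and its loader, 5 of 6 genes fell in each line. PCNA had 246 and 233 CPM in treated and 632 and 688 CPM in untreated knock-in cells, and 247 and 229.7 CPM in treated and 479.9 and 741 CPM in untreated wild-type cells. PCNA, the clamp that keeps polymerases on DNA, was lower in treated libraries, at -1.46 ± 0.19 in knock-in and -1.36 ± 0.19 in wild-type cells (adjusted p = 0.000311 and 0.000881, edgeR), and its untreated wild-type libraries were far apart. RFC1, the large loader subunit, fell, at -1.07 ± 0.16 and -0.82 ± 0.16 (adjusted p = 0.000604 and 0.00383, edgeR). RFC3 had 50.5 and 51.0 CPM in treated and 156 and 128 CPM in untreated knock-in cells, and 53.0 and 59.4 CPM in treated and 100.4 and 147 CPM in untreated wild-type cells. RFC4 had 84.8 and 81.3 CPM in treated and 226 and 233 CPM in untreated knock-in cells, and 84.6 and 82.5 CPM in treated and 172 and 231 CPM in untreated wild-type cells. For these small loader subunits the falls were -1.48 ± 0.19 and -1.14 ± 0.19 in RFC3, and -1.46 ± 0.15 and -1.27 ± 0.15 in RFC4, with adjusted p between 0.000188 and 0.00191 (edgeR). RFC5 fell, at -1.09 ± 0.13 and -0.93 ± 0.13. RFC2, which shares the loader with them, had 50.9 and 58.9 CPM in treated and 52.4 and 53.2 CPM in untreated knock-in cells, and 65.3 and 67.8 CPM in treated and 50.2 and 56.6 CPM in untreated wild-type cells. It was not called, at 0.055 (95% interval -0.25 to 0.36) and 0.32 (0.013 to 0.62).

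Of polymerase alpha-primase, which makes the RNA-DNA primers, 3 of 4 genes fell in each line. PRIM1 had 50.1 and 49.2 CPM in treated and 151 and 149.7 CPM in untreated knock-in cells, and 60.1 and 52.2 CPM in treated and 124 and 146 CPM in untreated wild-type cells. PRIM1, the catalytic primase subunit, had the lowest adjusted p of all members in both lines, with -1.60 ± 0.14 in knock-in (adjusted p = 0.000106, edgeR) and -1.27 ± 0.14 in wild-type cells (adjusted p = 0.000423). PRIM2 fell, at -0.82 ± 0.15 and -0.54 ± 0.15, and turned to 0.32 and 0.38 once the trend of the counts on transcript GC content was removed. POLA1, the polymerase subunit, fell, at -0.89 ± 0.14 and -0.62 ± 0.14. POLA2, the accessory subunit, was not called, at 0.39 and 0.14.

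The polymerases of the fork held both large rises and large falls. POLE had 260.1 and 240.3 CPM in treated and 101 and 81.2 CPM in untreated knock-in cells, and 238 and 223 CPM in treated and 139 and 91.4 CPM in untreated wild-type cells. POLE (chr12:132623753-132687365, minus strand, GRCh38), the catalytic subunit of the leading-strand polymerase, had the largest rise of all members in both lines, 1.46 ± 0.20 in knock-in (adjusted p = 0.000393, edgeR) and 1.00 ± 0.20 in wild-type cells (adjusted p = 0.00404). POLE2 had 21.0 and 22.1 CPM in treated and 67.4 and 65.0 CPM in untreated knock-in cells, and 22.5 and 23.3 CPM in treated and 45.3 and 71.3 CPM in untreated wild-type cells. POLE2, its accessory subunit, fell, at -1.62 ± 0.20 and -1.35 ± 0.20 (adjusted p = 0.000281 and 0.00117, edgeR). Per kilobase, mean POLE RNA was 34.2 CPM in treated and 12.5 CPM in untreated knock-in cells, against 12.8 and 39.5 CPM for POLE2, so the order of these subunits was opposite in treated and untreated knock-in cells. Wild-type cells gave 31.5 CPM per kilobase in treated and 15.7 in untreated cells for POLE, and 13.6 and 34.7 for POLE2. The order of POLE and POLE2 was read only from values without removal of the GC trend. In polymerase delta, POLD2 had 118 and 116 CPM in treated and 53.8 and 56.5 CPM in untreated knock-in cells, and 128 and 129.7 CPM in treated and 90.7 and 71.2 CPM in untreated wild-type cells. POLD2, an accessory subunit, rose by 1.08 ± 0.14 and 0.67 ± 0.14 (adjusted p = 0.000338 and 0.00549, edgeR), with -0.15 in the wild type when scaled to the spike-ins. POLD1 had 113 and 109 CPM in treated and 52.7 and 38.4 CPM in untreated knock-in cells, and 116 and 119 CPM in treated and 95.2 and 57.8 CPM in untreated wild-type cells. POLD1, the catalytic subunit, rose in knock-in cells (1.29 ± 0.23, adjusted p = 0.00145, edgeR) and gave 0.62 ± 0.23 in wild-type cells (adjusted p = 0.0579), where both treated libraries were above both untreated ones. POLD3, another accessory subunit, fell, at -0.62 ± 0.15 and -0.44 ± 0.15 (adjusted p = 0.00747 and 0.0482, edgeR). It was called in neither line with the GC trend removed.

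Among the genes of Okazaki fragment joining and single-strand binding, the 3 RPA subunits fell and the ligase rose in knock-in cells. RPA3 had 25.7 and 30.0 CPM in treated and 80.3 and 69.1 CPM in untreated knock-in cells, and 21.8 and 21.5 CPM in treated and 45.9 and 59.4 CPM in untreated wild-type cells. RPA3, the smallest subunit of the complex that coats single-stranded DNA, fell, at -1.42 ± 0.17 in knock-in and -1.28 ± 0.17 in wild-type cells (adjusted p = 0.000238 and 0.00075, edgeR). RPA2 fell, at -0.85 ± 0.15 and -0.81 ± 0.15, and RPA1 fell in knock-in cells (-0.61 ± 0.12, adjusted p = 0.00271, edgeR) and gave -0.26, not called, in wild-type cells (adjusted p = 0.121). LIG1 had 106 and 99.4 CPM in treated and 54.1 and 44.3 CPM in untreated knock-in cells, and 107 and 108 CPM in treated and 88.7 and 56.5 CPM in untreated wild-type cells. LIG1, which seals Okazaki fragments, rose in knock-in cells (1.06 ± 0.20, adjusted p = 0.00199, edgeR) and gave 0.56 ± 0.20 in wild-type cells (adjusted p = 0.0514). FEN1, the flap nuclease that trims the fragments before ligation, was not called, at -0.062 (95% interval -0.33 to 0.20) and 0.07 (-0.20 to 0.33). With the GC trend removed FEN1 was called lower in knock-in cells.

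Of the 3 nucleotide supply genes, RRM1 alone was called with IFN-γ. RRM1 had 229 and 224 CPM in treated and 502 and 435 CPM in untreated knock-in cells, and 205 and 191 CPM in treated and 301 and 421 CPM in untreated wild-type cells. RRM1, the large subunit of ribonucleotide reductase, which makes deoxyribonucleotides, fell, at -1.05 ± 0.17 and -0.87 ± 0.17 (adjusted p = 0.000767 and 0.00358, edgeR), with treated below untreated libraries in both lines. RRM2 had 195 and 189 CPM in treated and 213 and 281 CPM in untreated knock-in cells, and 299 and 316 CPM in treated and 285 and 288 CPM in untreated wild-type cells. RRM2, the small subunit known to be made in S phase, was lower in both treated than in both untreated knock-in libraries and higher in both treated than in both untreated wild-type libraries. Neither change was called, at -0.36 ± 0.14 (adjusted p = 0.059, edgeR) and 0.10 ± 0.14 (adjusted p = 0.609). TYMS had 147 and 141 CPM in treated and 156 and 194 CPM in untreated knock-in cells, and 140.1 and 157 CPM in treated and 159.8 and 156 CPM in untreated wild-type cells. TYMS, the thymidylate synthase, gave -0.28 (95% interval -0.59 to 0.028) and -0.088 (-0.40 to 0.22), and was not called.

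Under TMM scaling a member's log2 fold change tended to be higher where the GC content of its transcripts was higher. The sign did not follow GC content in every member, as CDC45, at 51.9% GC, was called lower in both lines. Across the 44 genes the Spearman correlation of GC content with the log2 fold change was 0.828 in knock-in and 0.778 in wild-type cells, given as a description because the points share the same libraries. Over 15270 tested genes with a GC value it was 0.654 and 0.498. The 18 members under 45% GC had a median of -1.11 in knock-in and -0.88 in wild-type cells, and the other 26 had 0.06 and 0.09. POLE transcripts average 56.4% GC and POLE2 transcripts 41.7%, MCM7 57.6% and MCM6 43.1%. As the mean GC content of the libraries was itself higher with treatment, the dependence of each library's counts on GC and transcript length was removed in an alternative fit. There the correlation was 0.404 and 0.376, 23 members fell and 4 rose in knock-in cells (15.4 and 15.3% of all tested genes), and 20 fell and 5 rose in wild-type cells (13.5 and 11.4%). The part of the GC trend in the responses was not tested.

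With that trend removed, 18 of the 22 genes that fell in both lines still fell in both, and 2 of the 4 that rose in both, POLE and POLD2, still rose in both. POLE gave 0.53 in knock-in (adjusted p = 0.00422, edgeR) and 0.37 in wild-type cells (adjusted p = 0.0276), and POLD2 0.53 and 0.37 (adjusted p = 0.00162 and 0.0125). POLE2 stayed on the other side at -0.73 and -0.68 (adjusted p = 0.00158 and 0.00292, edgeR). MCM6 stayed lower at -0.65 and -0.72, PCNA at -0.81 and -0.85, and ORC5 at -1.01 and -0.86. The rises of MCM2 and of MCM7 in knock-in cells were no longer called, at -0.0059 and 0.10, and in wild-type cells MCM2 gave -0.02 and MCM7 0.41 (adjusted p = 0.0339, edgeR). CDT1, MCM5, POLD1 and LIG1 were not called in either line, with values from -0.08 to 0.20. PRIM2 turned to a called rise in wild-type cells (0.38, adjusted p = 0.0437, edgeR), and ORC6 was called higher in both lines (0.54 and 0.46, adjusted p = 0.00576 and 0.0163). RPA1 was called lower in both lines (-0.84 and -0.49), as was GINS4 (-0.44 and -0.49). In knock-in cells alone GINS1 was called higher (0.37) and FEN1 lower. The falls of POLD3 in both lines and of ORC4 in wild-type cells were no longer called.

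**Figure D4:**
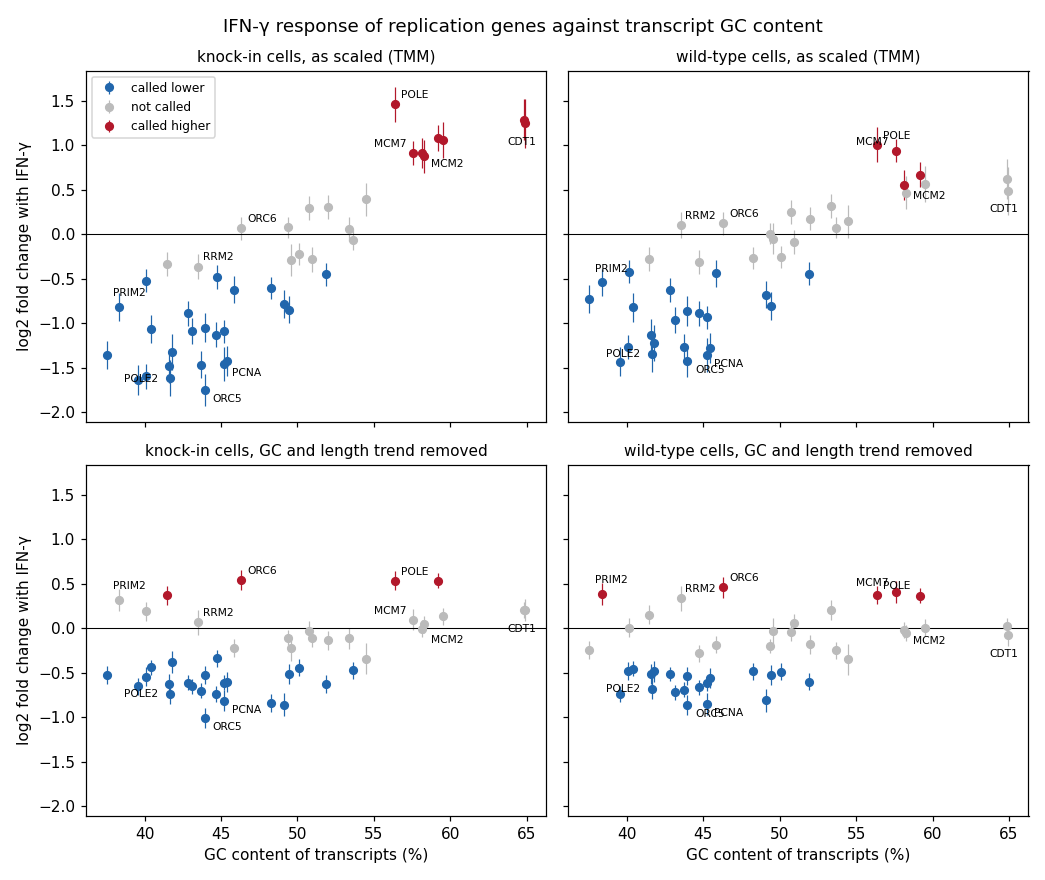
Log2 fold change with IFN-γ (vertical axis, bars for SE) against the GC content of each gene's transcripts (horizontal axis, %), for knock-in cells on the left and wild-type cells on the right, under TMM scaling above and with the GC and length trend removed below. Under TMM scaling the calls run from blue (lower) to red (higher) along the axis, with Spearman correlations of 0.828 and 0.778, and with the trend removed they flatten to 0.404 and 0.376, with POLE still above and ORC5 still below 0.

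Between the lines, few replication genes differed. Without IFN-γ 2 of 44 members were called in knock-in against wild-type cells, 1 higher and 1 lower, where 4.26% of all tested genes were called higher and 4.17% lower. CDC6 (chr17:40287633-40304657, plus strand, GRCh38), with 383 and 399 CPM in knock-in and 227 and 290.2 CPM in wild-type cells, was higher, at 0.60 ± 0.14 (95% interval 0.28 to 0.91, adjusted p = 0.0332, edgeR). POLD2 (chr7:44114681-44124358, minus strand, GRCh38), with 53.8 and 56.5 CPM in knock-in and 90.7 and 71.2 CPM in wild-type cells, was lower, at -0.55 ± 0.14 (95% interval -0.87 to -0.23, adjusted p = 0.0444, edgeR). For both genes the libraries of the lines did not overlap, and both calls held with the GC trend removed (0.45 and -0.40). With 1 library left out at a time, the CDC6 value stayed between 0.42 and 0.78 and was called in 2 of 8 fits, and the POLD2 value stayed between -0.72 and -0.37 and was called in 1 of 8. The second untreated wild-type library moved this comparison most, since without it 21 members were called, 14 higher and 7 lower, beside 4879 of all 16519 tested genes (1392 with every library). Without the first untreated wild-type library 1 member was called, and without any 1 of the other libraries 0 were. Mean GC content was 47.7% in the first untreated wild-type library, 46.5% in the second, and 46.3 and 46.4% in untreated knock-in cells. The fit without the second therefore compared knock-in cells with the wild-type library that stood apart. Removal of the GC trend left 3 members higher, namely CDC6, RPA1 and RPA3, and 3 lower, namely ORC2, POLD1 and POLD2 (6.75 and 8.31% of all tested genes). With spike-in scaling 0 members were called in either direction (0.908 and 3.13%), and DESeq2 called 5 (13.9%). RPA1 (0.46, adjusted p = 0.0519, edgeR) and POLD1 (-0.75, adjusted p = 0.0743) did not pass the threshold. The 44 values ran from -0.75 to 0.60 with a median of 0.06, and their Spearman correlation with GC content was -0.585.

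With IFN-γ 1 of 44 members was called between the lines, where 1.28% of all tested genes were called lower and 1.63% higher. RRM2 (chr2:10120698-10131419, plus strand, GRCh38) had 195 and 189 CPM in treated knock-in and 299 and 316 CPM in treated wild-type cells. It was lower in knock-in cells, at -0.68 ± 0.14 (SE; adjusted p = 0.04, edgeR), with no overlap, and at -0.65 with the GC trend removed (adjusted p = 0.0229). Leaving out any 1 of the 4 libraries compared kept a value between -0.72 and -0.64 and lost the call. Without IFN-γ its value was -0.21 ± 0.14 (adjusted p = 0.384, edgeR). The markers of plasma and B cells were also higher in 1 of the 2 treated knock-in libraries, and without both knock-in libraries numbered 2 RRM2 gave -0.65 and was not called (adjusted p = 0.393, edgeR). With the GC trend removed 1 member was higher (CDC6, 0.38, adjusted p = 0.0298, edgeR) and 1 lower (4.14 and 3.85% of all tested genes). Spike-in scaling left 0 called (0.575% of all tested genes higher and 0.605% lower), and DESeq2 called RRM2 alone (5.38%). The other 43 members had values between -0.45 and 0.36, among them 0.35 for CDC6 (95% interval 0.039 to 0.67) and 0.0076 for PCNA (-0.41 to 0.42).

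No replication gene was called for a difference between the lines' responses to IFN-γ. Of 44 members 0 passed in edgeR and 0 in DESeq2 (0.0242% of all tested genes), and 2 had an unadjusted p under 0.05 in edgeR, as had 6.77% of all tested genes, of which 0% passed after adjustment. ORC4 was one of them, with a difference of -0.63 ± 0.22 (95% interval -1.12 to -0.13, unadjusted p = 0.0181, adjusted p = 0.688, edgeR), falling further in knock-in cells. RRM2 was the other, at -0.47 ± 0.20 (95% interval -0.93 to -0.0086, unadjusted p = 0.0466, adjusted p = 0.688, edgeR). Of the 44 differences 32 were below 0 and their median was -0.13, but the median was 0.0065 with the GC trend removed, 0.12 with spike-in scaling, 0.016 without the first and -0.31 without the second untreated wild-type library. Genes that rose more in knock-in cells had positive differences, as POLE with 0.45 (95% interval -0.17 to 1.07) and POLD1 with 0.67 (-0.053 to 1.39). The lowest and highest of these differences were -0.63 and 0.76, and their standard errors ran from 0.17 to 0.38. The Spearman correlation of the differences with GC content was 0.738, and 0.201 with the GC trend removed.

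**Figure D5:**
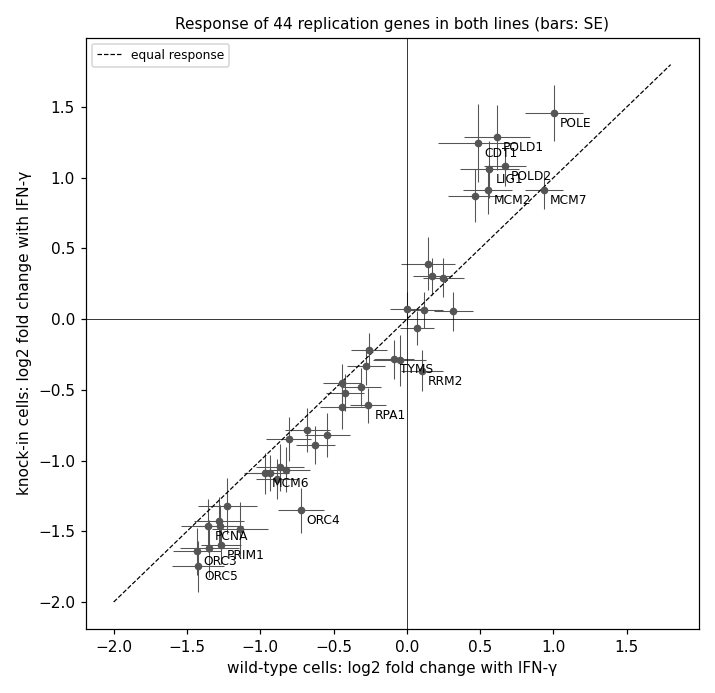
Log2 fold change with IFN-γ under TMM scaling in knock-in cells (vertical axis) against wild-type cells (horizontal axis) for the 44 genes, with bars for SE and a dashed line of equal response. POLE, POLD2, MCM2 and MCM7 lie high in both lines and ORC5, ORC3 and PCNA low, and RRM2 has a negative value in knock-in and a positive one in wild-type cells; scaled to the spike-ins, RRM2, MCM2 and POLD2 are negative in wild-type cells.

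Other genes of the pathway were counted from 3 lists. They are read against the shares over all tested genes, 26.4% higher and 25.8% lower in knock-in and 17.1% higher and 20.8% lower in wild-type cells. With the GC trend removed these shares were 15.3% higher and 15.4% lower in knock-in and 11.4% higher and 13.5% lower in wild-type cells. Of 38 further fork and initiation factors, 10 rose and 19 fell in knock-in cells and 7 rose and 15 fell in wild-type cells, which became 8 and 7, and 5 and 12, with the GC trend removed. Of 34 genes of nucleotide metabolism, 10 rose and 17 fell in knock-in and 6 rose and 15 fell in wild-type cells, and with the trend removed 6 and 12, and 4 and 10. Of 33 G1/S regulators, 10 rose and 9 fell in knock-in and 5 rose and 6 fell in wild-type cells, shares close to those of all tested genes, and with the trend removed 6 and 5, and 5 and 5. SAMHD1 had 176 and 177 CPM in treated and 43.4 and 43.7 CPM in untreated knock-in cells, and 133 and 141 CPM in treated and 49.4 and 44.2 CPM in untreated wild-type cells. SAMHD1, the enzyme that hydrolyses deoxyribonucleotides and is known to be induced by interferon, had the largest rise of the lists in both lines, 2.02 ± 0.13 in knock-in and 1.55 ± 0.12 in wild-type cells (adjusted p = 1.62e-05 and 8.93e-05, edgeR), and 2.21 and 1.61 with the GC trend removed. CCNE2 had 47.8 and 47.9 CPM in treated and 188 and 163 CPM in untreated knock-in cells, and 35.7 and 34.5 CPM in treated and 103 and 115 CPM in untreated wild-type cells. CCNE2, the cyclin E2 that drives entry into S phase, had the largest fall, -1.88 ± 0.13 and -1.63 ± 0.13 (adjusted p = 3.95e-05 and 0.000103, edgeR), and -0.73 and -0.85 with the trend removed. RRM2B, the alternative small subunit of ribonucleotide reductase, fell, at -1.49 ± 0.20 and -1.06 ± 0.19, and DUT, which feeds thymidylate synthesis, at -0.63 in knock-in and -0.50 in wild-type cells. LIN9, a subunit of the complex that partners the pocket proteins of the cell cycle, fell, at -1.65 ± 0.19 and -1.49 ± 0.19 (adjusted p = 0.000216 and 0.000699, edgeR), and the histone chaperone ASF1A, at -1.65 ± 0.17 and -1.33 ± 0.17 (adjusted p = 0.000188 and 0.000687). CHTF18, of an alternative clamp loader, rose by 1.48 ± 0.22 and 0.95 ± 0.22 (adjusted p = 0.000566 and 0.00782, edgeR). The purine synthesis enzyme PFAS gave 1.63 and 0.91, and TICRR, which helps load CDC45, 1.15 and 1.01 (adjusted p = 0.000253 and 0.00565 for PFAS and 0.000545 and 0.00189 for TICRR, edgeR). TK1, the salvage kinase of thymidine, was not called (0.23 and 0.21). E2F1 rose in knock-in cells (0.77, adjusted p = 0.00457, edgeR) and not by call in wild-type cells (0.29, adjusted p = 0.208). With the GC trend removed E2F1 and DUT were called in neither line. The values of RRM2B, LIN9, ASF1A, CHTF18, PFAS, TICRR and TK1 are given under TMM scaling alone.

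Of the genes counted, 20 members share exon positions with another gene in GENCODE, 16 of them with one on the opposite strand, and the strand setting of the counting is not given in the sources used here. POLE, POLE2, PCNA, MCM6, ORC3, ORC5 and CDC6 are not among them, while MCM2, MCM7, ORC4, RFC4, PRIM1, POLD1, LIG1, RPA3, RRM1, RRM2 and TYMS are. In GENCODE 8 members, PCNA, RFC3, RFC5, POLD2, FEN1, RPA2, RRM2 and TYMS, have named pseudogenes with which reads could be shared, so their values are less certain. No member had counts identical to those of another gene ID.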

How the data were processed

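Total RNA depleted of ribosomal RNA was sequenced in 8 libraries, 2 for each of 4 groups taken from the sample labels. Trimming was by Trimmomatic and quantification by kallisto against GRCh38, per the submitters' processing notes, which here name no version; the transcript annotation is also not given in the sources used here. What the authors deposited are estimated counts per Ensembl gene ID, not scaled to depth, of which 58.1% of the nonzero values are not whole (tolerance 1e-06). They were rounded. GENCODE release 29 named 35583 of 40295 IDs, and 63 ERCC spike-ins stayed out of the tests. In R 4.3.3, edgeR 4.0.16 kept 16519 genes (filterByExpr, minimum count 10) and fitted group alone over all 8 libraries with TMM factors (quasi-likelihood test, Benjamini-Hochberg p across the tested genes, threshold 0.05). The SE is the size of the log2 fold change over the square root of F, and intervals are 95%. Log2 fold changes carry edgeR's prior count and were computed here. Fold changes are treated over untreated cells or knock-in over wild-type cells. CPM is the count relative to the scaled library total, and CPM per kilobase divides it by the median transcript length.

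The members, the role groups and the gene lists were chosen with earlier results of these data known. Every member is accounted for. Those with the largest called changes, the highest and lowest of each role group, and PCNA, MCM2, CDC6, CDT1, GMNN, RRM1, RRM2 and TYMS get full values, and of the other pathway genes the largest called rises and falls and E2F1, CCNE2, SAMHD1, RRM2B, TK1 and DUT are also named; 1 further gene of that rule is not reported here. Alternatives were DESeq2 1.42.0 and its size factors, ERCC scaling, no filter, at least 50 counts in 2 libraries, the replicate number as a block, removal of each library's loess trend (span 0.3) on GC content and length, which was known for 92.4% of tested genes, the compared groups alone, and libraries left out. Leaving a group with 1 library assumes that it varies like the others. The block with the trend removed was added after the data were seen. The fit was tested on simulated data.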

Additional observations from a re-analysis of the deposited data

Results flagged for a closer look

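RRM2, the small subunit of ribonucleotide reductase, was picked out because every treated knock-in library lay below every untreated one and every treated wild-type library above every untreated one. The knock-in minus wild-type difference between the log2 responses was -0.47 ± 0.20 (SE; 95% interval -0.93 to -0.0086), with an unadjusted p of 0.0466 and an adjusted p of 0.688 (edgeR), so it was not called. The response itself was not called in either line, and under spike-in scaling the wild-type value was -0.70, on the same side as knock-in cells.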

How the results depend on the processing

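Counts of members that fell stayed within 1.5 times the reported 24 of knock-in and 22 of wild-type cells under every alternative run, from 16 to 30 and from 16 to 33. Leaving out 1 library at a time gave 20 to 28 falls and 8 to 10 rises in knock-in cells, and 16 to 25 falls and 3 to 9 rises in wild-type cells. In every one of these 8 fits 20 members fell and 8 rose in knock-in cells, and 15 fell and 3 (MCM7, POLD2 and POLE) rose in wild-type cells. The 4 rises of wild-type cells became 0 with ERCC scaling, 7 with DESeq2, 8 with no filter and 7 with the replicate block. The 8 rises of knock-in cells became 1 with ERCC scaling, and 4 with the GC trend removed, 4 without both knock-in libraries numbered 2, and 4 with block and trend together. The 2 calls between untreated lines became 1 with DESeq2's size factors, 0 with ERCC scaling, 5 with DESeq2, 7 with no filter, 4 with the replicate block, 6 with the trend removed, 0 with the compared groups alone, 4 with block and trend, and 0 to 21 with 1 library left out. The 1 call between treated lines became 0 with ERCC scaling, 2 with the trend removed, 4 with the compared groups alone, 0 without both knock-in libraries numbered 2, 2 with block and trend, and 0 to 3 with 1 library left out. The difference between responses had 0 members called in every fit.

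With ERCC scaling the IFN-γ response of 6 members changed sign in knock-in cells and of 14 in wild-type cells. Those called under either scaling were all in wild-type cells, namely MCM2 -0.29, MCM3 -0.64, MCM4 -0.80, ORC6 -0.68, POLD2 -0.15, FEN1 -0.74 and RRM2 -0.70. With the trend removed, without and with the block, wild-type MCM2 gave -0.020 and -0.024, ORC2 0.0079 and 0.0078, and PRIM2 0.38 and 0.38, and knock-in MCM2 gave -0.0059 and -0.0054, ORC2 0.19 and 0.19, GINS1 0.37 and 0.37, and PRIM2 0.32 and 0.32. The cause was not tested.

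Over all genes, the wild-type response called 6256, against 4122 with the trend removed and 3336 to 7828 with 1 library left out. The knock-in response called 8613, against 5085 with the trend removed, 5070 with block and trend, and 3562 without both knock-in libraries numbered 2. The untreated lines differed in 1392, against 667 with ERCC scaling, 2291 with DESeq2, 2959 with no filter, 2487 with the trend removed, 2490 with block and trend, 514 with the compared groups alone, and 400 to 4879 with 1 library left out. The treated lines differed in 481, against 195 with ERCC scaling, 888 with DESeq2, 1227 with no filter, 1320 with the trend removed, 1275 with block and trend, 2226 with the compared groups alone, 113 without both knock-in libraries numbered 2, and 143 to 1120 with 1 library left out. The difference between responses called 0, against 4 with DESeq2, 267 with no filter, 4 without both knock-in libraries numbered 2, and 0 to 2 with 1 library left out.

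Same-numbered libraries did not deviate together in every pair of groups. The correlation of their deviations was 0.27 between the knock-in groups and -0.002 to 0.07 in the other 5 pairs, so the numbers were not taken as pairs. With 2 libraries a group, the SE of a member's response was 0.12 to 0.27 on the log2 scale.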

Other observations

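Line differences outside the 44 genes, given here under TMM scaling alone, were found among the wider pathway lists. Without IFN-γ, 1 of 38 fork and initiation factors was called higher in knock-in cells and 1 lower. Of 34 genes of nucleotide metabolism 1 was higher and 5 lower, and of 33 G1/S regulators 4 and 4. Over all tested genes 4.26% were higher and 4.17% lower. With IFN-γ the lists gave 0 and 0, 0 and 1, and 1 and 1, against 1.63% and 1.28% of all tested genes. NT5E had 70.3 and 67.4 CPM in treated and 119.7 and 124 CPM in untreated knock-in cells, and 139 and 144 CPM in treated and 236 and 267 CPM in untreated wild-type cells. NT5E, the surface nucleotidase that makes adenosine, was lower in knock-in cells with IFN-γ (-1.04 ± 0.12, adjusted p = 0.00216, edgeR) and without it (-1.05 ± 0.12, adjusted p = 0.00168), and CDK6, a kinase of G1, was higher in both (0.72 ± 0.14 and 0.74 ± 0.14, adjusted p = 0.0272 and 0.0157). RBL1, a pocket protein that restrains E2F, was lower with IFN-γ (-0.69 ± 0.13, adjusted p = 0.0228, edgeR). Without IFN-γ LIN9, a subunit of the complex that partners the pocket proteins, was higher in knock-in cells (1.02 ± 0.19, adjusted p = 0.0141, edgeR), as was ASF1A (0.74 ± 0.17, adjusted p = 0.0294). CCND1, cyclin D1, was lower there (-0.96 ± 0.21, adjusted p = 0.0264, edgeR), and so was PFAS (-0.81 ± 0.20, adjusted p = 0.0362).

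The summed level of the 44 genes depended on the scale. In CPM after TMM scaling it was 6722 ± 0.594 in treated and 8714 ± 32.8 in untreated knock-in cells, and 6825 ± 162 in treated and 8222 ± 617 in untreated wild-type cells (SD, n = 2 each). As a share of the estimated counts it was 0.761% in treated and 0.754% in untreated knock-in cells, and 0.758% in treated and 0.754% in untreated wild-type cells.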
